A study of Homo sapiens with 18 samples.

Results

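The genes described here were listed as smooth muscle contractile genes and are TAGLN, ACTA2, ACTG2, CNN1, CALD1, MYL9, LMOD1, MYH11 and MYPN. Of these, MYPN encodes a protein of striated muscle sarcomeres and is kept as listed. MYOCD, which encodes the transcriptional coactivator myocardin, was listed with them. The genes were chosen by symbol, with earlier results of these data known. All 10 were found among the 28278 symbols of the count table and passed the filter on low counts that left 15353 genes for testing. The libraries were made from poly(A)-enriched RNA of LX-2, an immortalised human hepatic stellate cell line, so every value describes 1 line and not stellate cells of a liver. Cultures were held without serum for 1 h and then given either 1 U/mL of thrombin, a protease of blood clotting, or fresh medium without serum as the control. RNA was taken after thrombin for 4, 24 or 48 h and after control medium for 4, 24 or 48 h, with 3 libraries in each of the 6 groups. The libraries carry the numbers 12, 13 and 14, whose meaning the labels do not explain, and nothing states that libraries of a group came from separate cultures, so the p-values measure the spread between libraries, which may be technical.

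Smooth muscle cells contract by sliding actin filaments past filaments of smooth muscle myosin, and the sliding is switched on when the regulatory light chain of myosin is phosphorylated. Most genes of this apparatus are transcribed when serum response factor (SRF) binds a short DNA motif, the CArG box, together with myocardin or the related coactivators MRTFA and MRTFB, which are held in the cytoplasm by unpolymerised actin. Quiescent hepatic stellate cells that turn into myofibroblasts, as they do in liver fibrosis and in culture, take up part of this programme, and smooth muscle alpha-actin is the usual marker of that state.

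The RefSeq promoters of 3 actin-filament genes are shown because the CArG box is the element these genes are known for and because each holds at least 2 matches. They were chosen for their matches, and all 3 genes rose with thrombin at 24 h, while ACTG2 alone of them fell at 4 h. RefSeq (GRCh38.p14) promoters, from 250 bases before to 50 bases after each listed transcription start, were given for 6 of the 10 members, with 10 promoters in all. The CArG box was searched by name as a motif of 10 bases (C, C, a run of A or T, G, G), whose pattern is the same on both strands, and no other motif was searched. Among all 35116 promoters of this length, 454 (1.29%) held an exact match and 6624 (18.9%) held a match with at most 1 mismatch. ACTG2 (plus strand, chr2:73892758-73893057) had 2 exact matches, at -110 to -101 and at -73 to -64 from the start. The start of ACTA2 at chr10:88952724-88953023 (minus strand) had 2 matches with 1 mismatch, at -121 to -112 and at -71 to -62, and its other start (chr10:88991288-88991587) had none of either kind. LMOD1 (chr1:201946499-201946798, minus strand) had 2 matches with 1 mismatch, at -185 to -176 and at -160 to -151. The sequences run 5′ to 3′ along the gene, and capitals mark the exact matches in ACTG2 and the matches with 1 mismatch in ACTA2 and LMOD1.
ACTG2: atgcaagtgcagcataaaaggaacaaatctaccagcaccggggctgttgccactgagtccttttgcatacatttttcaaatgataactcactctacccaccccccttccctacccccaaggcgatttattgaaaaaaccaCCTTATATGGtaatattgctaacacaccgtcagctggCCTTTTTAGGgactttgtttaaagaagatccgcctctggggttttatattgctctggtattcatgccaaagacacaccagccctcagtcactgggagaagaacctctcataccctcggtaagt
ACTA2: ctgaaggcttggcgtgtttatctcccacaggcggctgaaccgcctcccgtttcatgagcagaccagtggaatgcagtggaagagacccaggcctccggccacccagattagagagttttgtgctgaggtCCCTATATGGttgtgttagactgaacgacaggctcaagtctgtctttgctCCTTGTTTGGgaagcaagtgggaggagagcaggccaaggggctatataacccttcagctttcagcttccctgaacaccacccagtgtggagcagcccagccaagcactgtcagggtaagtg
LMOD1: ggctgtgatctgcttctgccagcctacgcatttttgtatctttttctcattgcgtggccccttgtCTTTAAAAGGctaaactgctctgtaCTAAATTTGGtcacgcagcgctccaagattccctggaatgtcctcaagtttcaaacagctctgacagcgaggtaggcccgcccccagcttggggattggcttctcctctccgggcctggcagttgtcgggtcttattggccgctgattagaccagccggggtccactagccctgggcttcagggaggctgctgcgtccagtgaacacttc
Of the 4 promoters of CALD1, 2 held a match with 1 mismatch, and the promoters of CNN1 and MYPN held neither kind in this window. These matches describe the letters only, and SRF binding was not measured. No promoter was at hand for TAGLN, MYL9, MYH11 and MYOCD.

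Library totals ran from 14431044 to 23270601 counts. LX-2 identity was checked against markers: VIM (3593 CPM, TMM-scaled), COL1A1 (2274 CPM) and SPARC (836 CPM) were the highest of 18 stellate or fibroblast markers, PDGFRB stood at 66.5 CPM, and the quiescence marker LRAT had at most 6 counts in a library. Of the hepatocyte, endothelial and macrophage lists of 8 genes each, the highest were SERPINA1 at 4.96 CPM, TIE1 at 35.3 CPM and CD68 at 75.0 CPM, the last of these above PDGFRB. In bulk RNA, fewer cells of a type and less RNA per cell cannot be told apart. The groups are named as labelled, and 3 facts about all 15353 genes bear on how the members read. Thrombin against control called 965 genes higher and 848 lower at 4 h, 1389 higher and 1311 lower at 24 h, and 0 genes at 48 h (edgeR's quasi-likelihood test with Benjamini-Hochberg adjusted p under 0.05), where 1110 genes had an unadjusted p under 0.05 and DESeq2 called 20. The 4 h thrombin libraries and the 24 h control libraries differed in 3 genes higher and 8 lower (0.0195% and 0.0521% of the tested genes), fewer than any other pair of groups except thrombin and control at 48 h. The 4 h count came to 840 to 1019 genes without library 13 or 14 of either group, and the 24 h count to 1751 without control library 12 and 1731 without thrombin library 14. Scaling by library totals alone lowered the median of all genes at 24 h to -0.11 on the log2 scale, with 845 genes higher and 2537 lower, and at 4 h gave 1208 higher and 649 lower. Some members were lower with thrombin at 4 h and higher at 24 h. The treatment labels could not be checked independently here and remain in doubt, and an exchange of labels was not tested. Such an exchange at a time would turn the direction of every thrombin effect given for it.

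With thrombin, transcripts of 5 of the 10 members fell relative to control libraries after 4 h, those of 9 rose after 24 h, and none passed the test after 48 h. Those that fell at 4 h were TAGLN, ACTG2, CALD1, MYL9 and MYPN, where 5.52% of all tested genes fell, and none rose, where 6.29% of all genes rose. Those that rose at 24 h were all but MYH11, where 9.05% of all genes rose, and none fell, where 8.54% of all genes fell. Since the list was chosen with earlier results of these data known, its counts beside these shares are a description and carry no test. The median log2 fold change of all 10 was -0.54 at 4 h, 1.23 at 24 h and 0.03 at 48 h, against -0.00, 0.00 and 0.01 for all tested genes. Scaling by library totals alone, or with size factors of the DESeq2 type, left 5 members lower at 4 h and 9 higher at 24 h.

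**Figure D1:**
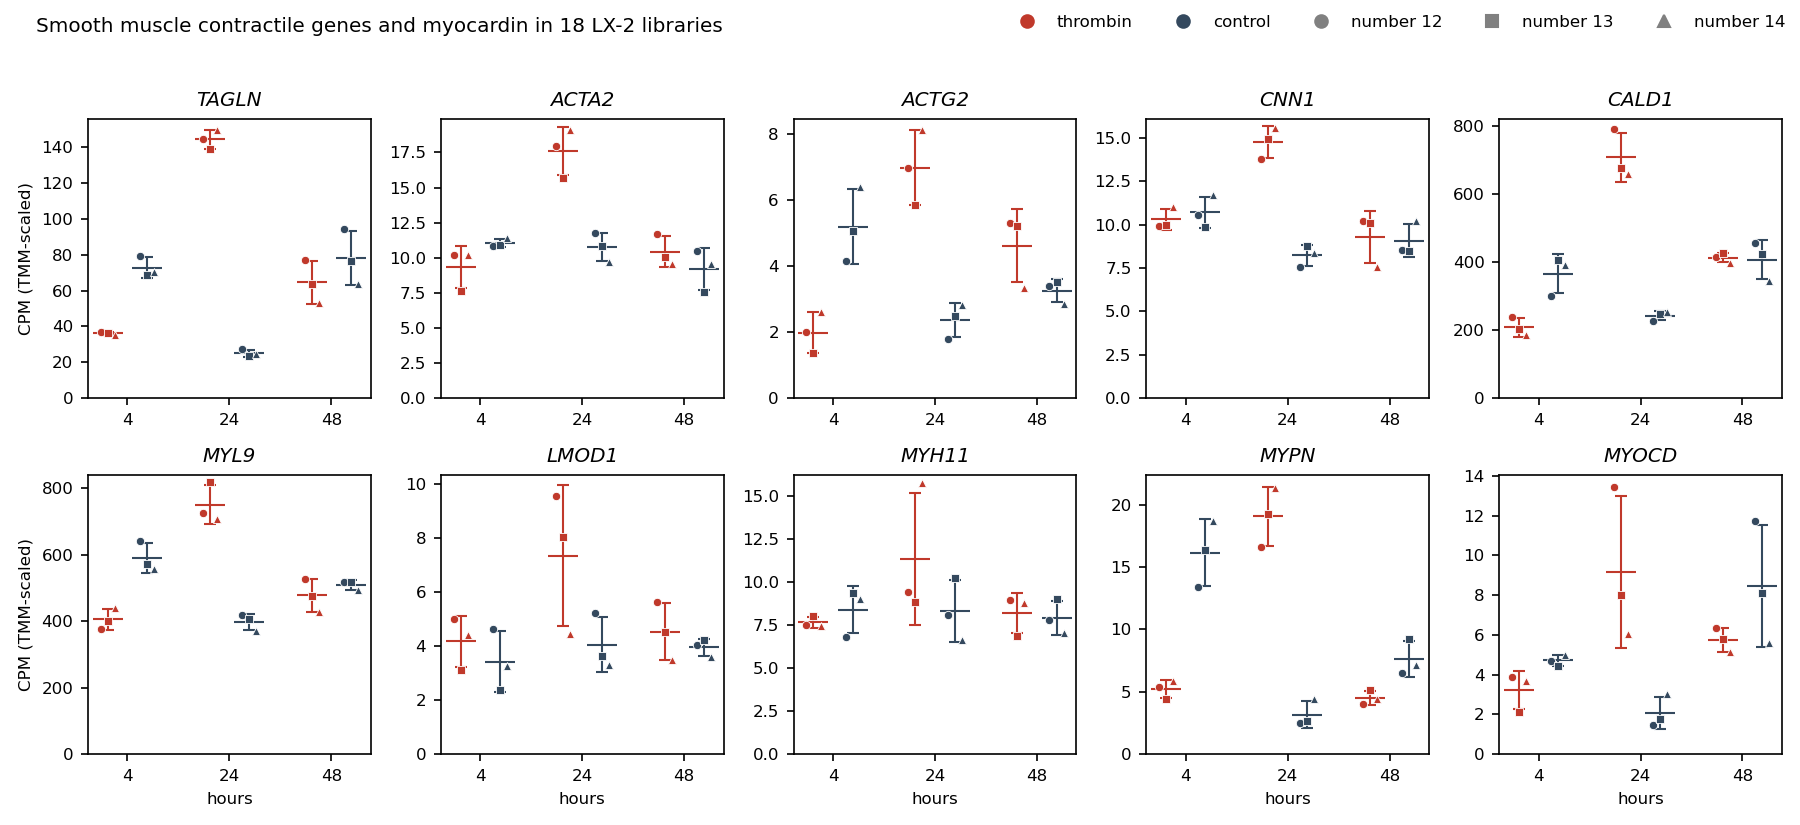
TMM-scaled CPM of each of the 10 genes (vertical axes, from 0, a scale for each gene) against hours (4, 24, 48), with thrombin in red left of control in blue; symbols mark the library number (12 circle, 13 square, 14 triangle), long bars the mean and whiskers the SD of 3 libraries. The 24 h thrombin group has the highest mean for all 10 genes, and the thrombin and control libraries do not overlap for 7 genes at 4 h, 8 at 24 h and 1 at 48 h, where 25.8%, 34.1% and 14.2% of all tested genes did not overlap.

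TAGLN encodes transgelin (SM22 alpha), an actin-binding protein that is among the earliest markers of smooth muscle differentiation. After 4 h it stood at 36.9, 36.4 and 35.1 CPM in thrombin libraries, against 79.4, 68.7 and 70.4 CPM in control libraries (numbers 12, 13 and 14, as for all values by library below). After 24 h the levels were 144, 139 and 149 CPM with thrombin, against 27.3, 23.6 and 24.6 CPM in control libraries. Neither time showed any overlap, and the side on which thrombin lay changed between them. The log2 fold change was -1.01 ± 0.12 (SE) at 4 h (edgeR adjusted p = 6.59e-06) and 2.52 ± 0.13 at 24 h (edgeR adjusted p = 8.21e-13), the smallest p of the members. At 48 h the values were 77.1, 63.4 and 53.2 CPM with thrombin and 94.1, 76.4 and 63.8 CPM in control libraries, which overlapped (log2 fold change -0.27 ± 0.12, edgeR adjusted p = 0.640). Between libraries of the same number the log2 ratio at 48 h was -0.29, -0.27 and -0.26, though what the numbers mean is not known. Of the 50-base windows of the TAGLN transcript, 18.6% are shared with PCSK7, a gene on the opposite strand that stood at 55.8 CPM with thrombin and 52.8 CPM in control libraries at 24 h and did not pass the test at any time.

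ACTA2, smooth muscle alpha-actin, is the marker by which activated stellate cells are usually recognised. It had 18.0, 15.7 and 19.1 CPM after 24 h of thrombin, against 11.8, 10.8 and 9.73 CPM in the controls. The groups did not overlap, and the fold change was 1.64 (log2 0.71 ± 0.14, edgeR adjusted p = 0.000544). After 4 h the thrombin libraries had 10.2, 7.62 and 10.2 CPM, against 10.8, 10.9 and 11.4 CPM in control libraries, a separation that did not pass the test (log2 -0.24 ± 0.14, edgeR adjusted p = 0.273). ACTA2 shares 30.1% of its windows with the antisense gene ACTA2-AS1, and since the strand setting of the counting is unknown these reads cannot be told apart. ACTA2-AS1 itself averaged at most 0.0993 CPM in any group.

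ACTG2 encodes the gamma-actin of visceral smooth muscle. Its 4 h levels were 2.00, 1.36 and 2.60 CPM with thrombin and 4.15, 5.07 and 6.40 CPM in control libraries. By 24 h the order had turned, with 6.99, 5.84 and 8.12 CPM in thrombin libraries against 1.80, 2.51 and 2.82 CPM in control libraries. ACTG2 thus fell at 4 h (log2 -1.38 ± 0.23, edgeR adjusted p = 0.000345) and rose at 24 h (log2 1.55 ± 0.23, edgeR adjusted p = 2.75e-05). After 48 h it had 5.31, 5.22 and 3.35 CPM with thrombin, against 3.41, 3.53 and 2.86 CPM in control libraries. That difference was the largest positive one of the members at 48 h, but library number 14 of the thrombin group lay inside the control range and the test was not passed (log2 0.51 ± 0.22, edgeR adjusted p = 0.640).

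CNN1 and CALD1 encode calponin 1 and caldesmon, actin-binding proteins that restrain the myosin ATPase. CNN1 was at 13.8, 15.0 and 15.6 CPM after 24 h of thrombin, against 7.55, 8.78 and 8.35 CPM in the controls. It rose without overlap (log2 0.84 ± 0.13, edgeR adjusted p = 4.27e-05), whereas at 4 h its libraries interleaved, at 9.93, 9.99 and 11.0 CPM with thrombin and 10.5, 9.88 and 11.7 CPM in control libraries. CALD1, which nonmuscle cells also transcribe in a shorter form that gene counts do not separate, had 790.3, 676 and 658 CPM at 24 h with thrombin and 228, 246 and 254 CPM in control libraries. At 4 h CALD1 had 239.9, 202 and 186 CPM in thrombin libraries against 301, 406 and 391 CPM in control libraries. CALD1 fell at 4 h (log2 -0.81 ± 0.11, edgeR adjusted p = 4.80e-05) and rose at 24 h (log2 1.54 ± 0.11, edgeR adjusted p = 8.03e-10). Its 48 h groups averaged 413 ± 14.0 CPM with thrombin and 407 ± 57.8 CPM in control libraries (SD, n = 3 each), a log2 difference of 0.02 ± 0.11.

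LMOD1 encodes leiomodin 1, which nucleates actin filaments in smooth muscle, and it was the least secure of the genes that rose. At 24 h it had 9.55, 8.02 and 4.46 CPM with thrombin, against 5.21, 3.63 and 3.30 CPM in control libraries. Thrombin library 14 lay below control library 12, and the rise (log2 0.85 ± 0.26, edgeR adjusted p = 0.0249) was lost when control library 13 or 14 or thrombin library 12 or 13 of that time was left out (adjusted p from 0.0775 to 0.142). At 4 h its levels overlapped, with 4.99, 3.13 and 4.41 CPM in thrombin libraries and 4.62, 2.38 and 3.27 CPM in control libraries. LMOD1 shares 9.95% of its windows with an antisense gene.

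MYL9 encodes the regulatory light chain of smooth muscle and nonmuscle myosin, whose phosphorylation starts contraction. With thrombin it had 375, 401 and 439 CPM at 4 h, against 641, 570.4 and 558 CPM in control libraries. At 24 h it had 726, 817 and 706 CPM in thrombin libraries, against 417, 405 and 369 CPM in control libraries. MYL9 had the smallest spread between libraries of the members, and it fell at 4 h (log2 -0.54 ± 0.09, edgeR adjusted p = 0.000233) and rose at 24 h (log2 0.92 ± 0.09, edgeR adjusted p = 3.63e-08). No window of its transcript is shared with another gene.

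MYH11, the smooth muscle myosin heavy chain and the most specific marker of mature smooth muscle, did not pass the test at any time. At 24 h it had 9.42, 8.83 and 15.7 CPM with thrombin, against 8.09, 10.2 and 6.61 CPM in control libraries. One thrombin library, number 14, stood above all others, and the remaining ones lay within the control range (log2 0.46 ± 0.19, edgeR adjusted p = 0.0983). The same comparison passed when control library 13 or thrombin library 13 of that time was left out (adjusted p = 0.0487 and 0.0357) and with no filter on low counts (adjusted p = 0.0302). MYH11 shares 12.3% of its windows with other genes, chiefly NDE1 on the opposite strand, which had 68.1 CPM with thrombin and 65.0 CPM in control libraries at 24 h.

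MYPN encodes myopalladin, an actin-binding protein of striated muscle sarcomeres from the palladin family, and it gave the largest fold changes of the members at both early times. After 4 h it had 5.36, 4.39 and 5.85 CPM with thrombin, against 13.4, 16.3 and 18.7 CPM in control libraries. After 24 h it had 16.6, 19.2 and 21.3 CPM with thrombin, against 2.47, 2.64 and 4.38 CPM in control libraries. MYPN fell at 4 h (log2 -1.63 ± 0.17, edgeR adjusted p = 1.67e-06) and rose 5.97-fold at 24 h (log2 2.58 ± 0.19, edgeR adjusted p = 7.67e-10). It was also the only member whose groups did not overlap at 48 h, with 4.01, 5.12 and 4.38 CPM in thrombin libraries and 6.51, 9.24 and 7.12 CPM in control libraries. That difference had an unadjusted p of 0.000568 and an edgeR adjusted p of 0.265 (log2 -0.75 ± 0.19), and with no filter on low counts the adjusted p was 0.0041.

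The coactivator gene MYOCD had the widest spread between libraries of the members. Its 24 h levels were 13.5, 8.02 and 6.04 CPM with thrombin and 1.47, 1.78 and 3.00 CPM in control libraries. All thrombin libraries were above all control libraries, and the rise was 4.31-fold (log2 2.11 ± 0.33, edgeR adjusted p = 9.44e-05), although the ratio between libraries of the same number ran from 3.10 (number 12) to 0.98 (number 14) on the log2 scale. At 4 h MYOCD had 3.87, 2.12 and 3.67 CPM with thrombin and 4.68, 4.46 and 5.01 CPM in control libraries. This separation did not pass the test (log2 -0.54 ± 0.31, edgeR adjusted p = 0.280). With no filter on low counts MYOCD had an edgeR adjusted p of 0.0472 at 4 h. At 48 h it had 6.35, 5.78 and 5.13 CPM in thrombin libraries and 11.7, 8.12 and 5.60 CPM in control libraries, which overlapped (log2 -0.56 ± 0.28, edgeR adjusted p = 0.698). Its counts ran from 22 to 223 in a library, and 7.28% of its windows are shared with an antisense gene.

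**Figure D2:**
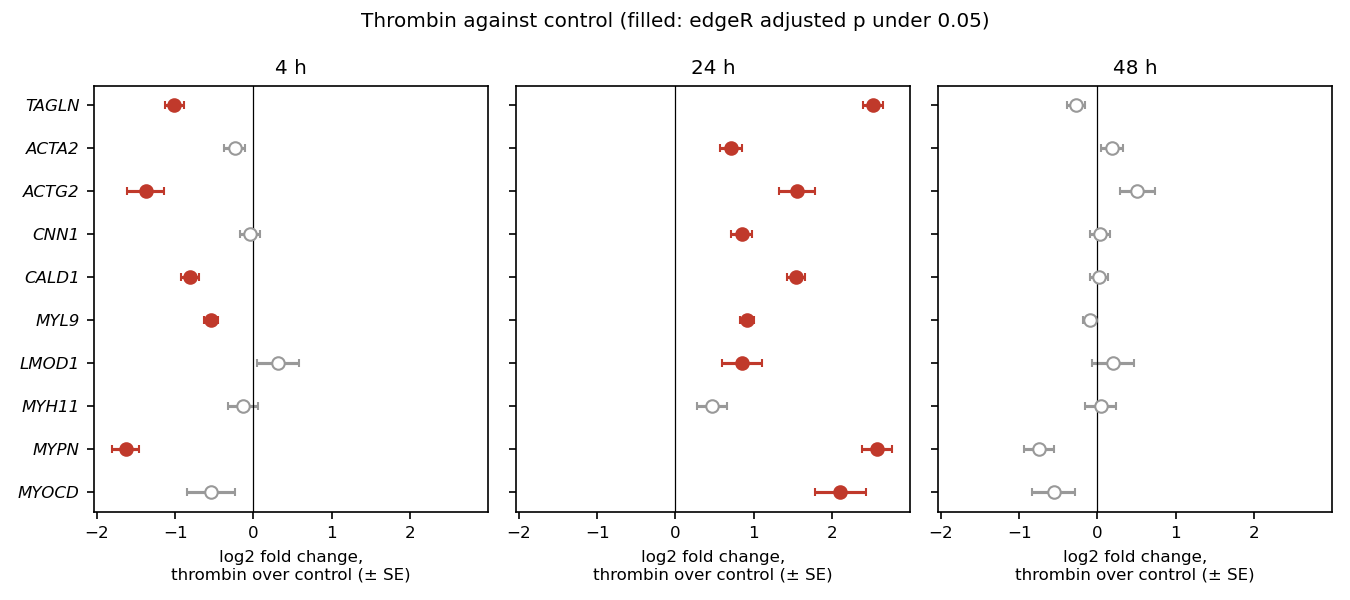
Log2 fold change of thrombin over control for each gene at 4, 24 and 48 h (horizontal axes, whiskers are SE); filled points passed edgeR's adjusted p under 0.05. The points lie left of 0 for 9 genes at 4 h, right of 0 for all 10 at 24 h and on both sides of 0 at 48 h.

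At 48 h, 0 members were called in either direction by edgeR or by DESeq2, where 0% of all genes rose and 0% fell. Unadjusted p-values under 0.05 were found for 3 members (TAGLN, ACTG2 and MYPN), where 7.23% of all genes had one, and of the 3 ACTG2 alone had the higher mean with thrombin.

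Because TAGLN, ACTG2, CALD1, MYL9 and MYPN fell at 4 h and rose at 24 h, the change of the effect between times was tested directly. These tests use the same libraries, so they give the size of the change and no independent support. LMOD1 lay above 0 at both times (0.31 ± 0.27 and 0.85 ± 0.26). The effect at 24 h exceeded that at 4 h for 8 of the 10 members, with 13.6% of all genes called in that direction, and was smaller for none, with 14.3% of all genes called in the other. MYPN had the largest such difference (4.21 ± 0.26, log2, edgeR adjusted p = 1.52e-11), followed by TAGLN (3.53 ± 0.17, edgeR adjusted p = 5.54e-13), and LMOD1 and MYH11 were the 2 that did not pass. From 24 to 48 h the effect dropped for 7 members, against 6.68% of all genes, and increased for none, against 7.16%. ACTA2 (-0.53 ± 0.20, edgeR adjusted p = 0.0720), LMOD1 and MYH11 did not pass. The call of ACTG2 (-1.04 ± 0.32, edgeR adjusted p = 0.0326) was lost without any 1 of 6 libraries (adjusted p from 0.0557 to 0.104) and without number 12 (adjusted p = 0.131). Between 4 and 48 h the effect increased for TAGLN, ACTG2 and CALD1, 3 members against 0.475% of all genes, and decreased for none, against 0.156%. Of these, ACTG2 differed most (1.89 ± 0.32, edgeR adjusted p = 0.00375), while the call of TAGLN (0.74 ± 0.17, edgeR adjusted p = 0.0345) was lost without any 1 of 10 libraries (adjusted p from 0.0527 to 0.116), and that of CALD1 without control library 13 of 4 h (adjusted p = 0.0583).

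The control libraries were not level over time, and these changes enter each comparison with thrombin. In serum-free medium alone, 6 members were lower at 24 h than at 4 h (TAGLN, ACTG2, CALD1, MYL9, MYPN and MYOCD), where 7.15% of all genes were lower, and none was higher, where 8.10% were. MYPN averaged 3.17 ± 1.06 CPM in control libraries at 24 h, against 16.1 ± 2.67 CPM at 4 h (log2 -2.33 ± 0.19, edgeR adjusted p = 1.52e-08). TAGLN averaged 25.1 ± 1.92 CPM at 24 h, against 72.8 ± 5.77 CPM at 4 h (log2 -1.53 ± 0.13, edgeR adjusted p = 1.44e-08; SD, n = 3 each). By 48 h, 5 members stood higher than at 24 h (TAGLN, CALD1, MYL9, MYPN and MYOCD), where 2.69% of all genes did, and none stood lower, where 3.43% did. TAGLN returned to 78.1 ± 15.2 CPM in control libraries at 48 h, which did not differ from 4 h by the test (log2 0.10 ± 0.12, edgeR adjusted p = 0.645), and MYOCD reached 8.48 ± 3.07 CPM. Only MYPN was lower at 48 h than at 4 h, 1 member where 4.17% of all genes were lower, and no member was higher, where 3.76% were.

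Thrombin libraries took the opposite course up to 24 h. All 10 members, MYH11 included, were higher at 24 h than at 4 h of thrombin, where 7.85% of all genes were higher and 7.28% lower. MYH11 averaged 11.3 ± 3.83 CPM at 24 h, against 7.66 ± 0.320 CPM at 4 h (log2 0.58 ± 0.19, edgeR adjusted p = 0.0384), and LMOD1 had an edgeR adjusted p of 0.0333. Leaving out 1 library left 8 to 10 members in this count, as did scaling by library totals, which left 8. From 24 to 48 h, 6 members fell (TAGLN, ACTA2, CNN1, CALD1, MYL9 and MYPN), where 5.41% of all genes did, and none rose, where 4.31% did. MYPN averaged 4.50 ± 0.562 CPM at 48 h, against 19.1 ± 2.36 CPM at 24 h of thrombin (log2 -2.07 ± 0.18, edgeR adjusted p = 1.30e-08). TAGLN, ACTG2 and CALD1 remained higher at 48 h than at 4 h of thrombin, 3 members where 0.638% of all genes were higher and 0.469% lower. CALD1 stood at 413 ± 14.0 CPM at 48 h, against 209 ± 27.9 CPM at 4 h (log2 0.98 ± 0.11, edgeR adjusted p = 2.06e-05).

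**Figure D3:**
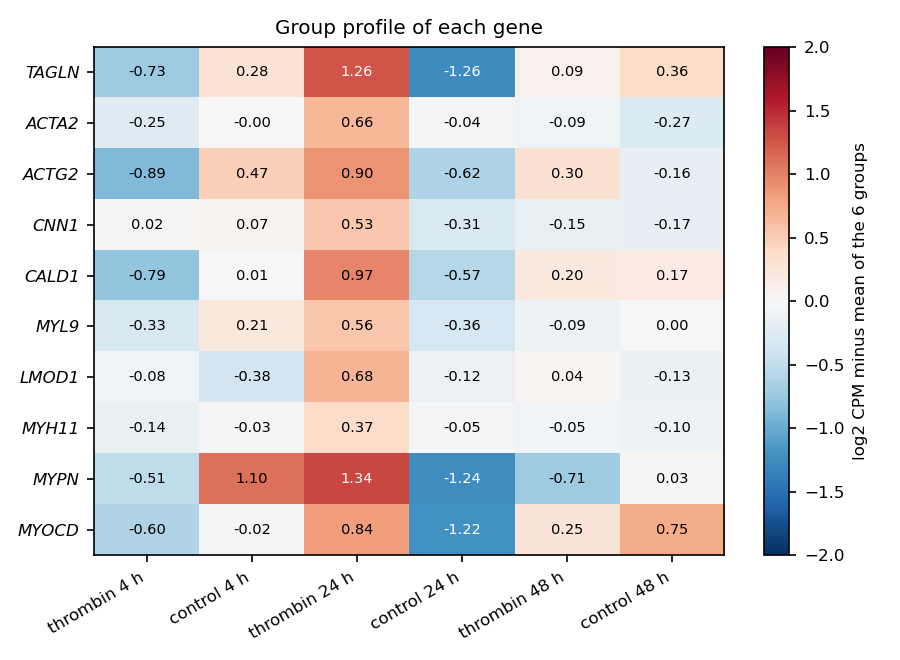
Group mean of log2 CPM minus the mean of the 6 groups, for each gene (lines of the grid) and group (columns, thrombin left of control at each time); red is above and blue below the gene's own mean. The 24 h thrombin column is the highest for all 10 genes, and the lowest column is control 24 h for TAGLN, CNN1, MYL9, MYPN and MYOCD.

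Set across all 6 groups, each of the 10 members had its highest mean after 24 h of thrombin. The group next in order differed from it by edgeR's test for TAGLN, ACTA2, CNN1, CALD1 and MYL9, and did not for ACTG2, LMOD1, MYH11, MYPN and MYOCD. Of the 50 pairs of neighbours in the members' orders, 8 differed, so most of the ranks below the first are not fixed by these data. Compared with the 4 h controls, the 24 h thrombin libraries were higher for 6 members (TAGLN, ACTA2, CNN1, CALD1, MYL9 and LMOD1), where 2.37% of all genes were higher, and lower for none, where 0.970% were. TAGLN was 1.98-fold higher in that comparison (log2 0.99 ± 0.12, edgeR adjusted p = 6.09e-06), against 5.74-fold in the comparison with the 24 h controls. For MYPN the 24 h thrombin mean was 19.1 ± 2.36 CPM and the 4 h control mean 16.1 ± 2.67 CPM (log2 0.24 ± 0.16, edgeR adjusted p = 0.497). Compared with the 48 h controls, 8 members were higher after 24 h of thrombin, where 4.51% of all genes were, and none was lower, where 2.36% were. MYOCD was one of those that did not pass, at 9.17 ± 3.84 CPM after 24 h of thrombin and 8.48 ± 3.07 CPM in 48 h controls (log2 0.10 ± 0.27, edgeR adjusted p = 0.870). In the comparison of 4 h thrombin with 24 h control libraries, the members' edgeR adjusted p ran from 0.169 (TAGLN, log2 0.52 ± 0.13) to 0.999.

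Scaled by length, as CPM per kilobase of exon, the members differed widely among themselves in these cells. MYL9 stood highest at 184.84 CPM per kilobase over all 18 libraries, with CALD1 at 39.7 and TAGLN at 17.9 CPM per kilobase. ACTA2 and CNN1 followed at 3.83 and 3.60 CPM per kilobase. The remaining 5 were between 0.536 (MYH11) and 1.31 (MYPN) CPM per kilobase, and MYH11, MYOCD and ACTG2 were the lowest on this measure. Lengths were of all exons pooled over transcripts. They were 16104 bases for MYH11 and 3811 for ACTG2, against 6886 and 2064 bases for their longest coding transcripts. The order among these 5 therefore depends on the length used. Several nonmuscle relatives, though not those of MYL9, were far more abundant. At 24 h of thrombin the cytoplasmic actins ACTB and ACTG1 had 1376 ± 62.3 and 2779.9 ± 126 CPM per kilobase. ACTA2 had 5.91 ± 0.577 in these libraries (SD, n = 3). The nonmuscle myosin heavy chain MYH9 had 973 ± 40.7 CPM per kilobase in the same libraries, against 0.704 ± 0.238 for MYH11. TAGLN2, a transgelin found in most cell types, had 236 ± 9.92 CPM per kilobase, against 36.8 ± 1.30 for TAGLN. PALLD was closer to MYPN, at 7.15 ± 1.11 against 2.70 ± 0.335 CPM per kilobase. The light chains went the other way, with MYL9 at 266 ± 21.0 CPM per kilobase, above MYL12B (135 ± 6.02) and MYL12A (54.5 ± 4.19).

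**Figure D4:**
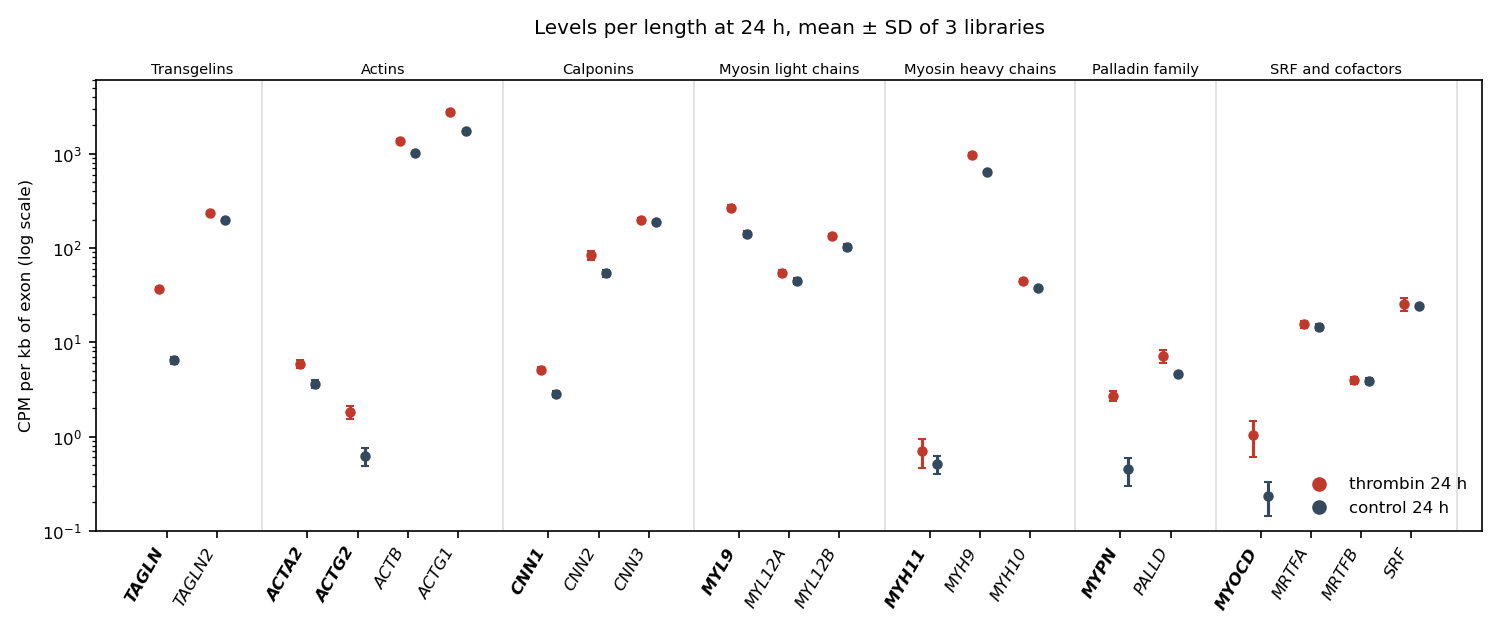
Level in CPM per kilobase of exon (log scale) at 24 h for the members (bold) and their nonmuscle relatives or SRF cofactors, thrombin in red left of control in blue; points are means and whiskers the SD of 3 libraries. ACTB, ACTG1 and MYH9 lie far above ACTA2, ACTG2 and MYH11, and the gap between thrombin and control is widest for TAGLN, MYPN and MYOCD.

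Most nonmuscle counterparts rose at 24 h, where 9.05% of all tested genes rose and 8.54% fell. At 4 h, 5.52% of all genes fell and 6.29% rose. Of 17 tested counterparts (18 listed), 8 fell and 1 rose at 4 h, 14 rose and 1 fell at 24 h, and 0 were called at 48 h, with medians of -0.25, 0.36 and -0.01 (log2). The gene that went the other way at both early times was TMOD1, which encodes a tropomodulin that caps actin filaments (0.93 ± 0.17 at 4 h and -1.01 ± 0.17 at 24 h). ACTG1 averaged 8320.1 ± 377 CPM after 24 h of thrombin, against 5195 ± 116 CPM in control libraries (log2 0.68 ± 0.07, edgeR adjusted p = 6.33e-08). ACTB moved by 0.45 ± 0.07 in the same comparison and by -0.44 ± 0.07 at 4 h. MYH9 (0.62), CNN2 (0.64) and PALLD (0.62), the nonmuscle relative of MYPN, rose at 24 h too. MYL12B (0.40), MYL12A (0.29), TAGLN2 (0.27) and MYH10 (0.26) rose less, and the last 3 did not pass when libraries were scaled by their totals alone, which left 9 of the 17 higher. CNN3 did not pass at any time (0.08 ± 0.07 at 24 h, and -0.03 under that scaling). ACTB and ACTG1 have near-identical copies among pseudogenes, so their levels are uncertain.

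Of 33 other smooth muscle genes, 26 were tested. Of these, 4 fell and 1 rose at 4 h, where 5.52% of all tested genes fell and 6.29% rose. At 24 h 12 rose and 1 fell, where 9.05% of all genes rose and 8.54% fell. At 48 h 0 were called. The median log2 fold change was -0.11, 0.32 and 0.11 at 4, 24 and 48 h. TPM1, a tropomyosin that lies along the actin filament, had 741 ± 35.4 CPM after 24 h of thrombin, against 412 ± 12.8 CPM in control libraries (log2 0.85 ± 0.08, edgeR adjusted p = 1.48e-08). CSRP1, a LIM protein of smooth muscle, rose by 0.68 ± 0.08, ACTN1, which crosslinks actin at adhesions, by 0.78 ± 0.09, and PDLIM5, a Z-disc and stress fibre protein, by 1.02 ± 0.16 on the log2 scale. TPM1 (-0.66 ± 0.08), CSRP1 (-0.41 ± 0.08) and ACTN1 (-0.32 ± 0.09) were also 3 of the 4 that fell at 4 h. Scaling by library totals left 8 of the 26 higher at 24 h.

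Of the genes that control contraction, such as those of calcium release and of myosin phosphorylation, most did not pass the test. Of 28 tested (29 listed), 5 fell and 2 rose at 4 h, 9 rose and 0 fell at 24 h, and 0 were called at 48 h, with medians of -0.16, 0.19 and 0.01 (log2). Over all genes, 5.52% fell and 6.29% rose at 4 h, and 9.05% rose and 8.54% fell at 24 h. Among those that rose at 24 h were PPP1R12A, the myosin phosphatase targeting subunit (0.38 ± 0.11, log2), and ITPR2, a calcium release channel of the endoplasmic reticulum (0.55 ± 0.15). Scaling by library totals left 1 of the 28 higher and 1 lower at 24 h, and PPP1R12A no longer passed.

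SRF, the DNA-binding partner of myocardin, rose at 4 h and did not pass the test later. It had 101 ± 4.79 CPM after 4 h of thrombin, against 77.6 ± 4.06 CPM in control libraries (log2 0.37 ± 0.09, edgeR adjusted p = 0.00983), at the time when 5 members fell. At 24 h it had 107 ± 17.0 CPM with thrombin and 103 ± 1.95 CPM in control libraries (log2 0.06 ± 0.09, edgeR adjusted p = 0.695, and -0.05 when scaled by library totals). MRTFA and MRTFB did not pass at any time (0.09 ± 0.10 and 0.02 ± 0.11 at 24 h). Per length, SRF (24.3 CPM per kilobase over all libraries), MRTFA (14.4) and MRTFB (3.88) stood above MYOCD (0.628). Among 27 tested regulators and cofactors (28 listed), 6 rose and 3 fell at 4 h, 7 rose and 4 fell at 24 h (5 and 6 when scaled by library totals), and 0 were called at 48 h. For comparison, 6.29% of all genes rose and 5.52% fell at 4 h, and 9.05% rose and 8.54% fell at 24 h. KLF4, a factor known to repress smooth muscle genes, had 20.8 ± 4.17 CPM after 24 h of thrombin, against 52.5 ± 4.42 CPM in control libraries (log2 -1.34 ± 0.16, edgeR adjusted p = 2.68e-06). FHL2, a LIM protein that binds SRF, rose at 24 h by 0.94 ± 0.07, SMAD3, a mediator of transforming growth factor beta signalling, by 0.98 ± 0.08, and KLF5 by 0.96 ± 0.13. FHL2 (-0.42 ± 0.07) and SMAD3 (-0.36 ± 0.08) were among the 3 that fell at 4 h. KLF4 (0.40 ± 0.16) and KLF5 (-0.13 ± 0.13) did not pass at 4 h, and KLF4 (0.53 ± 0.16) did not pass at 48 h.

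Markers of other muscle and wall cells were examined beside these results. For the counts below, 9.05% of all tested genes rose and 8.54% fell at 24 h, and 6.29% rose and 5.52% fell at 4 h. Of 43 striated muscle genes, 5 had no count in any library and 15 were tested, of which 4 rose and 1 fell at 24 h and 1 moved each way at 4 h. TNNT1 (111 CPM), ANKRD1 (28.4 CPM) and TTN (16.0 CPM) were the highest of them. MYOD1, a defining factor of skeletal muscle, had at most 2 counts in a library. The cardiac factor NKX2-5 averaged 9.43 CPM and rose at 4 h (log2 0.51 ± 0.13, edgeR adjusted p = 0.0132). The striated muscle genes summed to 198 to 217 CPM after 24 h of thrombin, against 181 to 191 CPM in control libraries. Of 10 pericyte and vascular smooth muscle markers, 7 were tested, of which 1 fell at 4 h and 1 rose at 24 h, with sums of 359 to 404 CPM with thrombin and 307 to 358 CPM in control libraries at 24 h. The 18 stellate and fibroblast markers summed to 7749 to 8364 CPM with thrombin and 6735 to 7249 CPM in control libraries at 24 h, with 6 of 14 tested higher and 2 lower. The part of these markers in the members' changes was not tested.

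Genes whose profile over all 18 libraries was most like that of TAGLN were found by Pearson's correlation of log2 CPM among 12897 genes outside the members. The first 5 were TPM1-AS (r = 0.966), THBS1 (0.951), OXTR (0.939), RFLNB (0.938) and ALPK2 (0.937). TPM1-AS is antisense to TPM1, and reads of the 2 cannot be told apart without the strand setting. For MYOCD they were CCBE1 (0.946), BICC1 (0.922), OXTR (0.919), ERBIN (0.903) and MAP3K7CL (0.903). OXTR, the oxytocin receptor gene, stood on both lists. The libraries share groups and scaling, so these values describe likeness of profile and carry no test.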

How the data were processed

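Poly(A)-enriched RNA of LX-2 cells was sequenced in 18 libraries, grouped by the treatment and time in the labels. The deposited table holds whole-number read counts per gene symbol, made by the authors; the submitters' processing notes list DESeq2, SAMtools 1.21, Bowtie2 2.5.4 and cutadapt 4.9, and the build GRCh38 (hg38). Their roles, the counter, the annotation and the strand setting are not given in the sources used here, so antisense and overlapping genes are uncertain. All columns were matched to libraries by name, and 0 were left over.

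Genes were kept by filterByExpr of edgeR 4.0.16 (minimum count 10, minimum total 15; R 4.3.3), libraries were scaled by TMM (factors 0.945 to 1.03), and the 6 group means were estimated from all 18 libraries together by robust quasi-likelihood (12 residual degrees of freedom). Tests were two-sided; p-values were adjusted by Benjamini-Hochberg across all 15353 genes, with a threshold of 0.05. The code was tested on simulated data. Alternatives were other scalings, filters and dispersion, DESeq2 1.42.0, libraries of 1 time alone, the library number as a block, leaving out number 12 and leaving out each library in turn.

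Coordinates and promoters came from RefSeq GRCh38.p14; 26998 symbols (95.5%) matched. Exon lengths and overlaps came from GENCODE 29, which may not be the annotation counted. The shared-window shares compare 50-base windows of transcripts. Likeness used genes with a mean log2 CPM of at least 1 (prior count 2). The members and gene lists were chosen with earlier results of these data known. All members are described; of each other list, counts and up to 4 genes with the smallest adjusted p at 24 h, plus SRF, MRTFA, MRTFB, KLF4 and the nonmuscle relatives; of marker lists, counts and the highest levels, with defining markers (PDGFRB, LRAT, MYOD1) added afterwards. Some genes that control contraction and that this rule would name are not reported here.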

Additional observations from a re-analysis of the deposited data

Results flagged for a closer look

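The thrombin effect (log2 fold change, thrombin over control) differed between times for several members by edgeR's interaction test with Benjamini-Hochberg adjusted p under 0.05, and each such difference is given here as a value, with no explanation. For the effect at 24 h minus that at 4 h, the values were 3.53 for TAGLN, 0.95 for ACTA2, 2.93 for ACTG2, 0.89 for CNN1, 2.35 for CALD1, 1.46 for MYL9, 4.21 for MYPN and 2.65 for MYOCD. For the effect at 48 h minus that at 24 h, they were -2.80 for TAGLN, -1.04 for ACTG2, -0.81 for CNN1, -1.52 for CALD1, -1.01 for MYL9, -3.33 for MYPN and -2.67 for MYOCD. For the effect at 48 h minus that at 4 h, they were 0.74 for TAGLN, 1.89 for ACTG2 and 0.83 for CALD1. These 3 sets share libraries and are not independent of each other.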

How the results depend on the processing

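Single members gave 32 called tests (thrombin against control at each time, and differences between times). Refitted under each alternative, these gave 270 values, of which 269 kept their direction and side of the threshold under other scalings, filters, dispersion, DESeq2, the block, the libraries of a time alone and without number 12. The exception was ACTG2, effect at 48 h minus 24 h, without number 12. With each library left out in turn, 555 of 576 values did. Genes called at 48 h (0) became 50 with no filter on low counts, 1 with the replicate block, 5 without number 12, 2 with the libraries of that time alone and 20 with DESeq2. Without number 12, 3560 genes were called at 4 h, against 1813. With no filter, members called were 6 at 4 h (against 5), 10 at 24 h (against 9) and 1 at 48 h (against 0). The same setting gave 5 for the effect at 48 h minus 4 h (against 3) and 3 for control 48 h over 4 h (against 1). It gave 10 for thrombin 48 h over 24 h (against 6). Control 48 h over 4 h had 2 with the replicate block and 2 with DESeq2. Leaving out each library in turn gave 840 to 2397 genes at 4 h, 1731 to 2950 at 24 h and 0 to 4 at 48 h, and gave 1 to 4 members for the effect at 48 h minus 4 h and 1 to 2 for control 48 h over 4 h. The cause of these shifts was not tested.

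Signs turned in tests that were not called. With no filter CALD1 at 48 h was -0.011 (log2), and with the replicate block MYOCD, effect at 48 h minus 4 h, was 0.032. Without number 12, CNN1 at 48 h was -0.071, MYH11 at 48 h -0.048, CNN1, effect at 48 h minus 4 h, -0.043, and MYOCD for the same 0.378. With 1 library left out, CNN1 ranged from -0.11 to 0.015 at 4 h and from -0.040 to 0.15 at 48 h, CALD1 at 48 h from -0.093 to 0.10 and MYH11 at 48 h from -0.044 to 0.15. For the effect at 48 h minus 4 h, LMOD1 ranged from -0.39 to 0.12 and MYOCD from -0.26 to 0.28.

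Deviations of same-numbered libraries (12, 13 and 14) from their group means correlated at -0.167 to 0.275, over 0.1 in 11 of 45 pairs. Such weak correlations over all genes cannot show whether libraries of the same number were paired. With the replicate block, 1829 genes were called at 4 h and 2678 at 24 h, and the members called at 4, 24 and 48 h stayed 5, 9 and 0 in number. Depth limits ACTG2, LMOD1, MYPN and MYOCD most, whose lowest counts in a library were 27, 47, 37 and 22. Intervals and tests cover the spread between 3 libraries a group.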
